A study of Caenorhabditis elegans with 2 samples.

Results

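The 43 genes described here build and run cilia in the nematode Caenorhabditis elegans, and the question is whether the homeodomain protein CEH-45 lay at them in late embryos. They were chosen by name, as genes of cilium assembly and function together with the regulator daf-19. The rule used no measured value, but the list was drawn up with earlier results of these data known. All 43 were found in the annotation, among 19973 nuclear protein-coding genes. Each of the 2 samples is a chromatin immunoprecipitation sequencing library from whole embryos of 1 strain, RW12292, in which genome editing put TY1, EGFP and 3xFLAG tags into ceh-45. Both replicates carry the tag at the gene's own locus. Chromatin was sonicated, selected at 200 to 800 bp and precipitated with an antibody to GFP, although another label field names ceh-45 as the antibody. The samples are labelled as late embryonic, obtained by bleaching, with an age of 2 hours, and as separate biological replicates. The control used by the authors is not analysed here. Both samples form 1 group, with no second condition, so nothing could be tested over samples, and every value below is a description. Because whole embryos were used, a strong site in few cells and a weak site in many cells cannot be told apart.

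Cilia are slender organelles built around microtubules, and in this animal they are found at the dendrite endings of sensory neurons. They are built by intraflagellar transport, in which trains of the protein complexes IFT-A and IFT-B are carried outward by kinesin-2 motors and back by a dynein motor. The BBSome rides these trains and moves membrane proteins, and the transition zone at the base acts as a gate. DAF-19, a transcription factor of the RFX family, switches many of these genes on through a promoter element called the X-box. CEH-45 itself belongs to the goosecoid-type homeodomain proteins, a family of transcription factors.

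A candidate peak was assigned to a gene when its summit fell at most 2000 bp before or 500 bp after a transcript start of the annotation. The larger ranked list of the series held 108916 candidates, and 548 of them formed the larger thresholded set. The value given for a peak is the authors' signal, with a median of 19.4 over all candidates and 80.1 in the thresholded set. The irreproducible discovery rate (IDR) is the global one. It is the expected share of irreproducible peaks among all peaks ranked at least as high. The lists hold no read counts, and the depth is unknown. The ranked lists of the replicates held 41437 candidates for replicate 1 and 43328 for replicate 2, with median signals of 16.5 and 15.6, so signals are read within their own list.

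Of the 43 ciliary genes, 4 had a peak of the larger thresholded set in the window. They were ift-43, dyf-17, che-13 and daf-19. This is 9.3% of the list (exact 95% interval 2.59 to 22.1, counting error only), beside 2.15% of all protein-coding genes. Only for daf-19 was the gene's own start the closest protein-coding start to the summit, with no gene of a small structural RNA within 250 bp. With that condition the count was 1 of 43, or 2.33%, beside 1.04% of all genes. The DNA under the peaks of ift-43 and dyf-17 is shown first, because it shows what else lies there.

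The summit windows of the peaks assigned to ift-43 and dyf-17 are printed on build ce11, plus strand, from RefSeq's WBcel235 sequence, with 50 bases on either side of each summit. In the first line capitals mark a tRNA-Phe gene of 73 bases, in the second they mark coding sequence of mdt-26, and in the third, which lies inside an intron of mdt-26, they mark the 11 bases centred on the summit.
dyf-17, chrV:19126018-19126118: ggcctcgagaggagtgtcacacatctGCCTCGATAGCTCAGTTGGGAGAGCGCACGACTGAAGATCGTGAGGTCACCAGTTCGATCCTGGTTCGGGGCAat
ift-43, chrII:5661228-5661328: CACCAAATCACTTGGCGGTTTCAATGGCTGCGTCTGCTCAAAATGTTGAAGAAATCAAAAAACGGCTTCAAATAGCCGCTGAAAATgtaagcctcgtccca
ift-43, chrII:5661788-5661888: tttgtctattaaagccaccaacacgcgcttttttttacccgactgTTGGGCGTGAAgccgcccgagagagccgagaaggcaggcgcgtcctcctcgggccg
The whole tRNA gene stands inside the dyf-17 window, and none of these windows lies in the transcribed part of the ciliary gene it was assigned to.

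The daf-19 site is shown on the minus strand, the strand of the gene, so that the sequence runs towards the gene's start. Capitals mark the 11 bases centred on the summit, near the left end, and the X-box match, near the right end.
daf-19, chrII:10169407-10169652: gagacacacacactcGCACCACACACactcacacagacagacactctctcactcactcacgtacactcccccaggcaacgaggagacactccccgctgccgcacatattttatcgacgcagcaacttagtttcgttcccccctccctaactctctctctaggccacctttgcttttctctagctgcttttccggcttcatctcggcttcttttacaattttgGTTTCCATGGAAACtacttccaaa
The summit stands in a run of CA repeats. In the same width of sequence around it, 81.2% were G or T on the plus strand. A skew this strong, towards either G and T or A and C, placed the window at percentile 99.98 of all candidates, a measure chosen after the values were seen. The X-box match lay 209 bp from the summit, and the peak ended 50 bp short of it. A replicate 1 candidate at 10169378 to 10169677, not in that replicate's thresholded set, did cover the match.

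The highest signal of any ciliary gene was at ift-43, which encodes a subunit of IFT-A (WBGene00016121, chromosome II, 5659881 to 5660786, minus strand). Its strongest peak covered 5661686 to 5661989 with a signal of 153.5 and an IDR of 0.000443, rank 65 of 548. A second peak at 5661126 to 5661429 had a signal of 90.1 and an IDR of 0.00159. Their summits lay 1052 and 492 bp upstream of the ift-43 start. The neighbour mdt-26, which encodes a Mediator subunit, runs the other way, and its nearest starts lay 644 and 84 bp from these summits. In the single replicates the stronger site had a signal of 81.1 in replicate 1 and 80.8 in replicate 2. The weaker site had 43.05 in replicate 1, where its IDR was 0.0968 and it was not in the thresholded set, and 50.7 in replicate 2, where it was. Both replicates thus placed the stronger site near the top of their own candidates, each at percentile 99.7. Their summits there differed, at 5661867 in an intron of mdt-26 in replicate 1 and at 5661781 in its coding sequence in replicate 2.

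The dyf-17 gene is named for a dye-filling defect of sensory neurons (WBGene00012673, chromosome V, 19127525 to 19131014, plus strand). Its peak at 19125916 to 19126219 had a signal of 125.7 and an IDR of 0.000773. The site had 71.7 in replicate 1 and 58.2 in replicate 2, and it passed in both replicates' own sets. The summit lay 1457 bp upstream of the dyf-17 start, inside the tRNA-Phe gene at 19126044 to 19126116. The nearest start of another protein-coding gene, bed-1, was closer than that of dyf-17, at 1146 bp.

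At che-13, which encodes the IFT57 subunit of IFT-B (WBGene00000492, chromosome I, 10506998 to 10515586, minus strand), the peak covered 10517100 to 10517403. Its signal was 109.8 and its IDR 0.000871. The site had 41.3 in replicate 1, where the IDR was 0.0361 and it did not pass, and 65.9 in replicate 2, where it did. The summit lay 1666 bp upstream of che-13. The snoRNA gene F59C6.15 lay 102 bp from it, and a start of the neuropeptide gene nlp-4 lay 803 bp away. As at dyf-17, the summit was near a small RNA gene and closer to another protein-coding start.

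The regulator daf-19 was the exception in position (WBGene00000914, chromosome II, 10157520 to 10169346, minus strand, 5 annotated starts). Its peak at 10169480 to 10169783 had a signal of 78.7 and an IDR of 0.00251, with the summit 286 bp upstream of the nearest start in intergenic sequence. The gpd-4 gene, which encodes a glyceraldehyde 3-phosphate dehydrogenase, was the nearest other protein-coding gene, with its start 1636 bp away. The replicates differed at this site. In replicate 2 the candidate had a signal of 51.6, percentile 99.4, with an IDR of 0.00144. In replicate 1 the stronger of the overlapping candidates had a signal of 28.2, percentile 93.7, its summit lay 104 bp away, and its IDR was 0.801. The highest candidate of replicate 1 in the whole daf-19 window, with 29.3, lay 86 bp upstream of a start. The site was therefore in the larger set and the replicate 2 set, and in neither the conservative set, where its IDR was 0.784, nor the replicate 1 set.

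**Figure D1:**
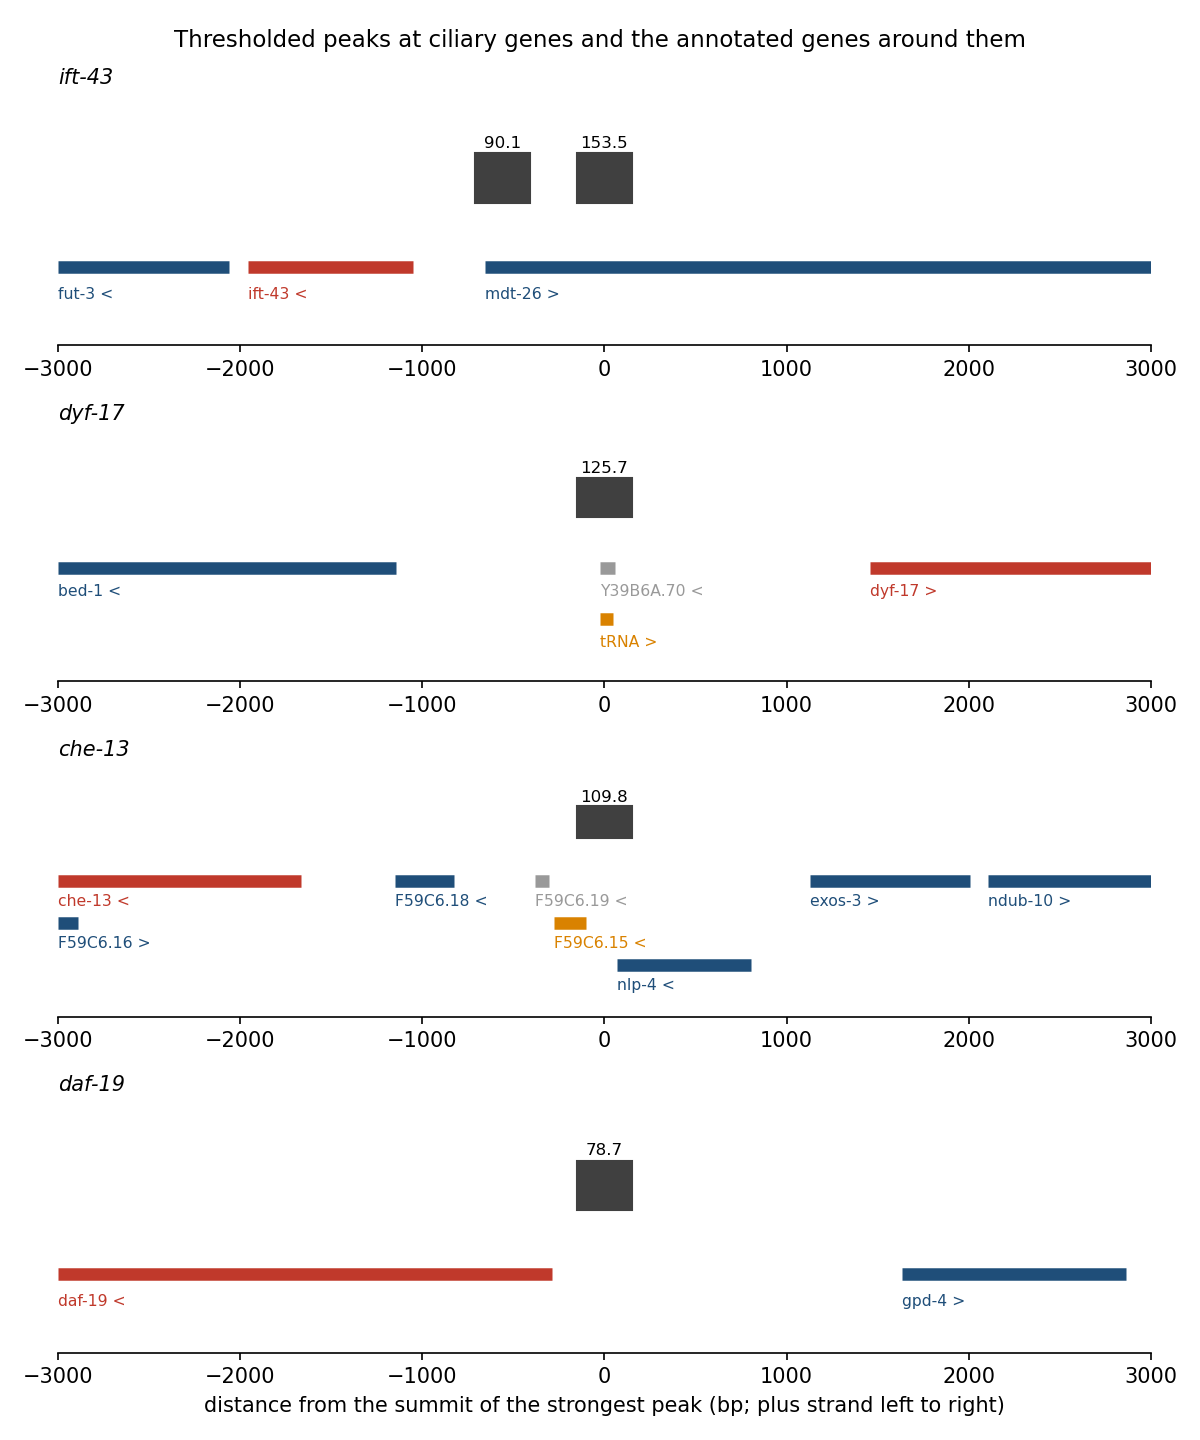
Thresholded peaks (dark boxes, with the authors' signal above) and annotated genes (bars; red, the ciliary gene; blue, other protein-coding genes; orange, tRNA or snoRNA; grey, other noncoding), with arrows for strand, against distance from the strongest summit in bp. The ift-43 peaks (153.5 and 90.1) lie at the 5' end of mdt-26, and the dyf-17 summit (125.7) lies inside a tRNA gene. The che-13 summit (109.8) lies 102 bp from a snoRNA gene, and the daf-19 peak (78.7) upstream of daf-19 itself.

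The count depended on the set. In the conservative set 3 of 43 genes, or 6.98%, had a peak, beside 1.83% of all genes. In replicate 1 alone 2 of 43, or 4.65%, had one, beside 1.12% of all genes, and in replicate 2 alone it was 4 of 43, or 9.3%, beside 0.886%. The genes ift-43 and dyf-17 were in all 4 thresholded sets. The others, che-13 and daf-19, were in the replicate 2 set and not in that of replicate 1. With a window of 1000 bp before and 250 bp after a start, daf-19 and ift-43 were the 2 genes left, beside 1.52% of all genes.

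The 5 genes nearest to the threshold from outside were 4 IFT-B genes and 1 kinesin-2 gene. The member closest to the IDR limit of 0.01 without reaching it was ift-74, a subunit of the IFT-B core, with an IDR of 0.0488 and a signal of 48.2. Its candidate lay in a coding exon, 30 bp downstream of the nearest start, and the gene's highest signals in the replicates were 25.5 and 24.2. It was followed by che-2, the IFT80 homologue, with an IDR of 0.0558 and a signal of 49.0 in intergenic sequence 1002 bp upstream. Then came ift-81, the partner of ift-74, with 0.135 and a signal of 45.7, and dyf-3, an IFT-B gene, with 0.144 and 41.8. The kinesin-2 gene klp-20 also had an IDR of 0.144, with a signal of 43.9. In the larger ranked list a gap thus separated the 4 thresholded genes, at an IDR of at most 0.00251, from the other members. The limit of 0.01 lies in this gap, and no such spacing over all genes is given. The conservative ranked list placed daf-19, with an IDR of 0.784, behind che-2 (0.108) and ift-74 (0.111).

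Of the 43 genes, 38, or 88.4%, had at least 1 candidate in the window, beside 90.1% of all genes. Over these 38 the highest signal ranged from 10.9 to 153.5 with a median of 32.4, beside a median of 30.2 over the 17997 genes with a candidate. The middle 50% of the ciliary genes lay between 25.6 and 41.8, and that of all genes between 23.5 and 37.9. By percentile among all genes, 24 of the 38 stood above the 50th and 6 above the 90th. These 6 were the thresholded genes, che-2 and ift-74. Ciliary genes had a median of 4 candidates in the window and all genes a median of 3.

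By role, IFT-A genes spanned the range. The other IFT-A genes were daf-10 (IFT122) with 42.02, dyf-2 (IFT144) with 40.4, ifta-1 (IFT121) with 32.4 and che-11 (IFT140) with 13.3. At daf-10 the summit lay in an intron of rpb-12, an RNA polymerase subunit gene whose start was closer, at 142 bp against 486 bp. The replicates differed there too, with 13.98 in replicate 1 and 28.5 in replicate 2.

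The IFT-B genes below the threshold went from 49.0 at che-2 to 10.9 at osm-5, the IFT88 homologue, which was the lowest of all 38. Its neighbours at the low end were dyf-13 (IFT56) and osm-1 (IFT172), each with 17.7, and osm-6 (IFT52) with 21.1. Between them lay ift-20 with 32.4, dyf-11 (IFT54) with 28.3 and ifta-2 (IFT22) with 24.8. Across the whole list the lowest signals were those of osm-5, che-11 and, with 16.1 each, tub-1, which encodes a tubby protein, and dyf-7, which anchors dendrite tips during development.

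The motor genes with a candidate had signals from 43.9 to 25.4. The kinesin-2 genes klp-20, klp-11 and kap-1, whose products form the heterotrimeric kinesin, had 43.9, 38.3 and 36.1. For osm-3, which encodes the homodimeric kinesin, the value was 28.8. In all of these the summit was 207 to 431 bp downstream of a start, in an intron of the gene itself, which at klp-11 also holds F20C5.11. The dynein light intermediate chain gene xbx-1 had 25.4, with F02D8.1 closer to the summit. The dynein heavy chain gene che-3 had no candidate in the larger ranked list.

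The BBSome genes bbs-1, bbs-5, osm-12 and bbs-8 had 41.7, 38.4, 32.4 and 20.1, and bbs-2 and bbs-9 had no candidate. At bbs-1 the summit lay 6 bp from the start, with an IDR of 0.450. All 5 transition zone genes had a candidate, with signals of 38.1 at nphp-1, 38.0 at mksr-2, 31.8 at mks-1, 27.1 at mksr-1 and 25.9 at nphp-4, and the lowest IDR among them was 0.25, at nphp-1. Of the remaining genes, arl-13, which encodes a ciliary small GTPase, had 34.7. The rootletin gene che-10 had 30.8 and the kinase gene dyf-5 had 30.4.

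**Figure D2:**
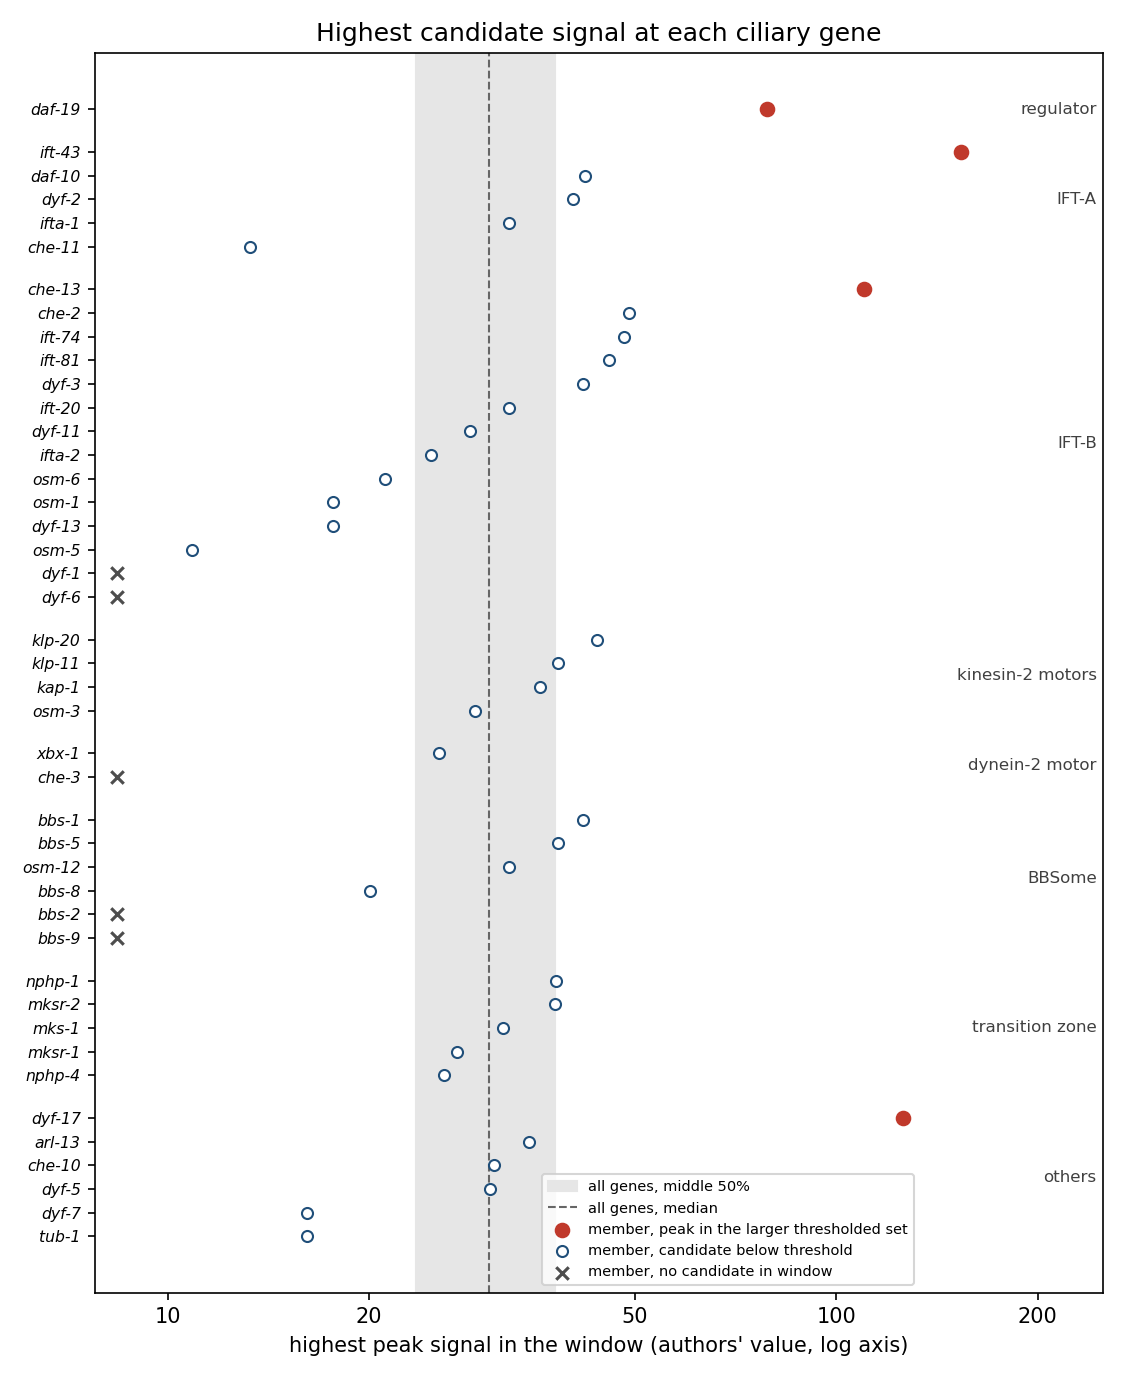
Highest signal of any candidate in the window of each of the 43 ciliary genes, by role (log axis), with the median and middle 50% of all genes with a candidate in grey. The 4 filled points are the genes with a thresholded peak, from 78.7 at daf-19 to 153.5 at ift-43, the open points lie between 10.9 and 49.0, and the 5 crosses had no candidate.

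The genes without a candidate in the larger ranked list were bbs-2, bbs-9, che-3, dyf-1 and dyf-6. In the single replicates, bbs-9 and che-3 had candidates in replicate 1, with signals of 18.03 and 21.57, and dyf-1 had one in replicate 2, with 19.2. Neither list held a candidate for bbs-2 or dyf-6, nor for dyf-7 or osm-5. Replicate 1 had candidates at 36 of the 43 genes, beside 13448 of all 19973 genes. The median highest signal was 18.5, beside 19.1 over all genes. Replicate 2 had candidates at 34 of the 43, beside 13927 of all 19973 genes, with a median of 18.4 beside 18.1. In 31 genes both replicates had 1, and only the 4 thresholded genes stood above the 90th percentile of genes in both. For daf-19 this was narrow in replicate 1, at percentile 90.1 with an IDR of 0.741. That value came from the candidate 86 bp upstream of a start and not from the thresholded site. No share of all genes above the 90th percentile in both is given. In klp-20 the highest signal in the window was 33.1 in replicate 1 (percentile 94.2) and 25.8 in replicate 2 (percentile 87.0). In che-2 it was 30.6 and 25.1 (91.8 and 84.9). In both genes the replicate 1 value came from the site of the highest candidate of the larger ranked list. The replicate 2 value came from another site. At the replicate 1 site, replicate 2 had a signal of 19.6 in klp-20 and 21.9 in che-2.

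**Figure D3:**
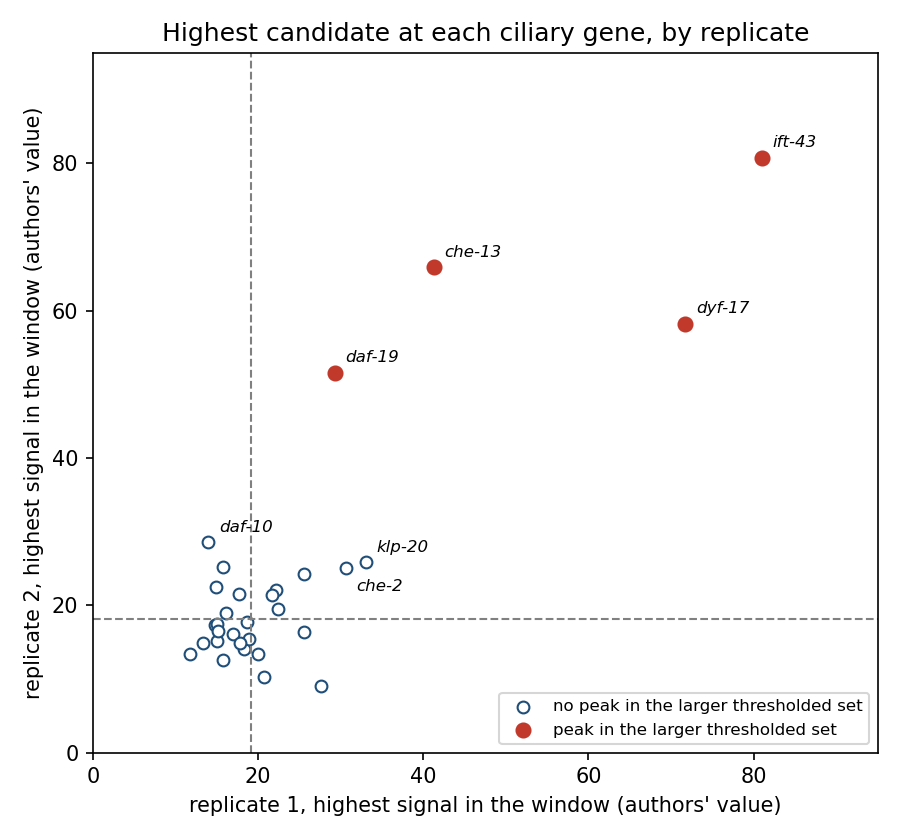
Highest signal in the window in replicate 1 (x axis) and replicate 2 (y axis) for the 31 ciliary genes with a candidate in both lists; dashed lines are the medians over all genes (19.1 and 18.1). The thresholded genes had 51.6 or more in replicate 2, against 28.5 or less in the others. They are also the genes with a peak in the replicate 2 thresholded set, so this split is not a separate observation. In replicate 1, daf-19 (29.3) lies below klp-20 (33.1) and che-2 (30.6).

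The highest candidates were spread over the window. Of the 38, 25 had the summit upstream of the nearest start and 13 downstream. The window itself reaches further upstream (2000 bp) than downstream (500 bp). The median distance was 516 bp, beside 642 bp over all genes. Within 250 bp of a start lay 9 of 38, or 23.7%, beside 24.4% of all genes, and 13 lay more than 1000 bp away. Another protein-coding start was closer in 8 of 38, or 21.1%, beside 29.6% of all genes, and a small RNA gene was near in 2. Coding exons held 12 of the summits, introns 11, intergenic sequence 10 and untranslated exons 3. The 2 others lay in noncoding genes. For side, distances over 1000 bp, small RNA genes and kind of sequence no share over all genes is given. Those counts therefore do not show a difference from other genes.

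**Figure D4:**
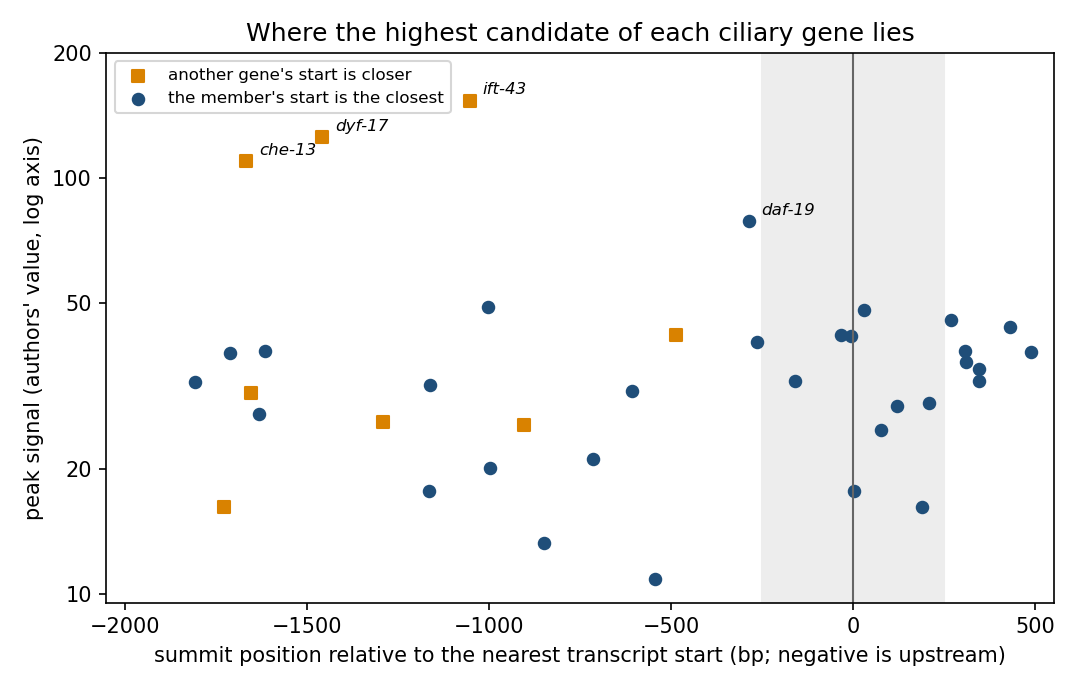
Position of the highest candidate's summit relative to the nearest transcript start (bp; x axis) against its signal (log axis) for 38 ciliary genes, with the 250 bp around the start shaded. The signals of 153.5, 125.7 and 109.8 lie 1052 to 1666 bp upstream with another gene's start closer (squares), and daf-19 lies 286 bp upstream with its own start closest.

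The X-box gave a second, sequence-based view of these promoters. The degenerate X-box consensus, of 14 bases, was searched on both strands from 500 bp upstream to 100 bp downstream of each start. It matched in 24 of 43 ciliary genes, or 55.8% (exact 95% interval 39.9 to 70.9), beside 2.46% of all genes. A stricter form matched in 10, or 23.3%, beside 0.165% of all genes. The consensus was itself defined from promoters that include ciliary genes, so its frequency here is no finding of these data. The X-box is the element through which DAF-19 acts, but a match is a description of sequence. Whether DAF-19 acts at these matches was not tested. The matches lay a median of 55.5 bp from a start. By role, 11 of 14 IFT-B genes, 3 of 5 IFT-A genes, 4 of 6 BBSome genes, 1 of 5 transition zone genes, 1 of 2 dynein-2 genes, none of the 4 kinesin-2 genes and 3 of 6 remaining genes had a match, as did daf-19.

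The strict matches of 8 genes are shown, as the elements against which the candidates are set. Capitals mark the outer bases on either side of the 2 central ones, and each is printed on the strand of its gene.
daf-19: GTTTCCatGGAAAC
osm-5: GTTACTatGGCAAC
osm-6: GTTACCatAGTAAC
osm-12: GTTGCCatAGTAAC
dyf-3: GTTTCTatGGGAAC
ift-74: GTTTCCatGGAAAC
xbx-1: GTTTCCatGGTAAC
ifta-2: GTTGCTatGGCAAC
In daf-19 and ift-74 the letters were identical and read the same on both strands.

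In most of these genes no candidate of the larger ranked list covered the X-box match. The counts that follow are for that list and not for the lists of the single replicates. At daf-19, for example, a replicate 1 candidate with a signal of 28.2 and an IDR of 0.801 covered the match. A match lay under a candidate in 7 of the 24 genes, or 29.2%, beside 157 of the 491 protein-coding genes with a match. Candidates covered 30.9% of the promoter bases of those 24 genes, close to the share of genes. No match in the 24 genes lay under a thresholded peak, and over all genes 1 of 491 did. In 5 of the 22 genes with both, the highest candidate's summit was within 152 bp of the match, which is the width from centre to edge of a thresholded peak. They were bbs-1, dyf-3, dyf-13, ifta-2 and osm-12, at 18 to 147 bp, with signals of 41.7, 41.8, 17.7, 24.8 and 32.4. In 11 genes it was more than 500 bp away. The median was 554 bp. The nearest candidate of any signal lay closer, a median of 298 bp from the match over the 24 genes. No such distances over all genes with a match are given, so these are descriptions only.

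**Figure D5:**
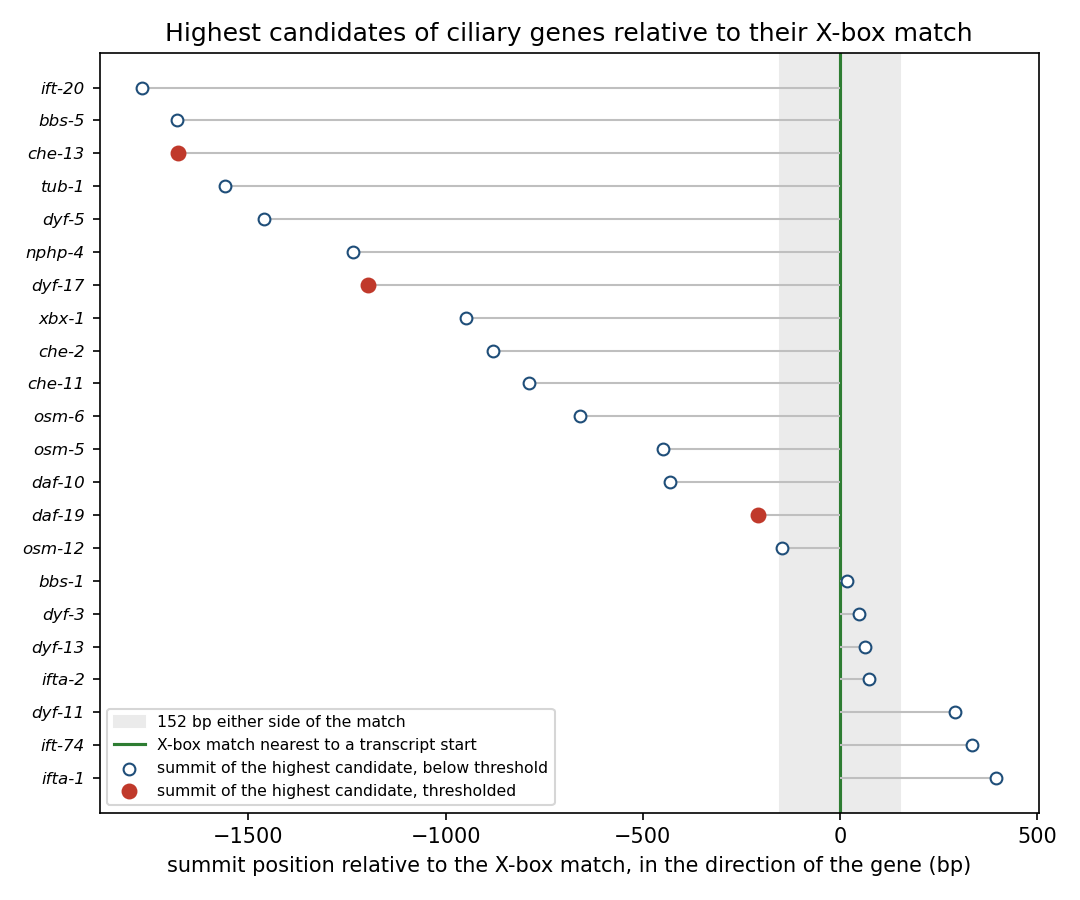
Summit of the highest candidate relative to the X-box match nearest to a start (vertical line), in the direction of the gene (bp; x axis), for the 22 ciliary genes with both. In 5 genes the summit is inside the shaded 152 bp on either side; the thresholded summits of daf-19, dyf-17 and che-13 lie 209, 1197 and 1679 bp upstream.

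The summit windows of the 5 thresholded peaks held neither an X-box match nor the word TAATCC, known as the core site of goosecoid-type homeodomains, on either strand. TAATCC stood in 2.55% of the 548 thresholded summit windows and in 3.65% of all candidates. The GC content of the 5 windows was 59.4% and 44.6% at ift-43, 57.4% at dyf-17, 55.4% at che-13 and 52.5% at daf-19. It averaged 49.8% ± 8.18 (SD) over the 548 thresholded peaks and 38.2% ± 8.82 over all 108916 candidates.

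Other genes of cilia that are not among the 43 were read in the same way. The list held 50 names, of which 47 are symbols of the annotation, and covered further transition zone proteins, ciliary tubulins and their modifying enzymes, sensory channels, small GTPases and the forkhead factor fkh-8. None of the 47 had a peak in any of the 4 thresholded sets. A count of 0 of 47 allows a share of up to 6.38%, taken as 3 genes of 47, and the exact 95% interval reaches 7.55%. Both limits lie above the 2.15% of all genes. The highest signal was 53.5 at tmem-107, a transition zone gene, 57 bp upstream of a start, with an IDR of 0.0373 and signals of 31.6 in replicate 1 and 25.9 in replicate 2. The snoRNA gene F39B2.14 lay within 250 bp of its summit. The median over 38 of these genes with a candidate was 27.6, beside 30.2 over all genes. An X-box match stood in 40.4% of the 47.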

How the data were processed

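Per the files' deposited notes, the authors made peak lists on build ce11 from the alignments of both replicates, or of each replicate for its own lists, and a control. What was compared to give the larger version is not shown by its columns. The control is not analysed here. Aligner and peak caller: not given in the sources used here. Each list holds the authors' signal per peak, whose relation to depth is not stated. The deposited ranked lists also hold the −log10 of the global IDR, at most 5. There are no read counts, so depth is unknown. Chromosome lengths of the reference WBcel235 held all peaks. Genes came from Ensembl release 115, and bases and the tRNA product from RefSeq's copy of that assembly. A small RNA gene is a tRNA, snRNA, snoRNA or rRNA gene. Overlap means at least 1 bp, and the nearest other start was sought within 3000 bp. Intervals are exact 95% binomial intervals. The assignment and the motif search were tested on simulated data. Python 3.11.15, numpy 2.4.6, pandas 2.3.3, scipy 1.17.1 and matplotlib 3.10.9 were used.

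The members and lists were chosen with earlier results of these data known. Genes named are daf-19, members with a peak in any thresholded set, the 10 highest and 3 lowest, the 5 on either side of an IDR of 0.01 (4 lie inside) and second-list genes with a thresholded peak. The remaining members are named for completeness, and tmem-107 and neighbouring genes were named after their values were seen. Alternatives varied the window, the peak set, the IDR limit, the overlap, the replicate and the motif.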

Additional observations from a re-analysis of the deposited data

How the results depend on the processing

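The 4 ciliary genes with a thresholded peak fell to 2, daf-19 and ift-43, with windows of 1000 bp before and 250 bp after a start (1.52% of all genes) and of 500 bp before and 100 bp after it (1.08%), and to 1, daf-19, with no other start closer and no small RNA gene near (1.04%). Leaving out a replicate gave 2 to 4. Without replicate 2, che-13 and daf-19 dropped out. The count was 3 at an IDR of at most 0.001 (0.451% of all genes) and 4 with every candidate at an IDR of at most 0.01 (2.21%) or with any base of the peak in the window (2.27%). The median highest signal was 26.1 in the 1000 bp window (26.3 over all genes) and 23.4 in the 500 bp window (23.5). It was 37.0 in the conservative ranked list (31.6) and 33.6 with any base in the window (31.0). With no other start closer and no small RNA gene near, it was 32.4 over 36 members (27.6 over all genes). A single replicate's list, whose scale differs, gave 18.4 to 18.5. The X-box count of 24 (2.46% of all genes) was 10 with the stricter letters (0.165%), 27 from 2000 bp before to 500 bp after a start (8.55%) and 24 from 300 bp before to 100 bp after it (1.77%). Summits within 250 bp of a start numbered 9 of 38 in the main list (24.4% of all genes), 5 of 36 without replicate 2 (24.0%), 7 of 34 without replicate 1 (24.6%), 7 of 32 in the conservative ranked list (24.3%) and 12 of 33 in the 1000 bp window (43.7%). The cause was not tested. No paired analysis was possible because there is a single group. Depth is unknown, so a missing candidate does not show that CEH-45 was absent.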
